A study of Mus musculus with 6 samples.

Results

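The nuclear-encoded genes of oxidative phosphorylation were examined in the medial prefrontal cortex (mPFC) of *Shank3* transgenic (TG) and wild-type (WT) mice. Members were the protein-coding genes of GENCODE release M21 whose symbols start with Nduf, Uqcr, Cox4, Cox5, Cox6, Cox7, Cox8 or Atp5, together with *Sdha*, *Sdhb*, *Sdhc*, *Sdhd* and *Cyc1*. The rule reads gene symbols and no measured value, but it was set with earlier results of these data known. The rule found 93 of the 18254 genes measured. They are 36 genes of complex I, 4 of complex II, 9 of complex III, 18 of complex IV and 16 of complex V. The other 10 members are not subunits but were taken in by their symbols. These are the complex I assembly factors *Ndufaf1* to *Ndufaf8*, the supercomplex factor *Cox7a2l* and *Atp5s*, and they are described here as assembly factors. *Ndufa4* and *Ndufa4l2* were counted in complex IV, where NDUFA4 is now placed. Of the annotated genes that meet the rule, *Cox8c* and a second *Atp5o* identifier were not measured.

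There were 6 libraries, 3 from male mice that carried an EGFP-*Shank3* transgene and 3 from their male WT littermates, all at 10 to 12 weeks of age on a C57BL/6J background. SHANK3 is a scaffold protein of excitatory synapses, and the transgene adds to the 2 normal alleles, which mice of both genotypes carry. The promoter that drives the transgene is not given in the sources used here. Each library was made from the mPFC RNA of 2 mice pooled, so that a value is the mean of a pair of animals and the p-values measure the spread between such pools.

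Oxidative phosphorylation is the final stage of respiration in the inner mitochondrial membrane. Complexes I and II pass electrons from NADH and succinate to ubiquinone, complex III passes them on to cytochrome c, and complex IV passes them to oxygen. Complexes I, III and IV pump protons, and complex V, the ATP synthase, uses the proton gradient to make ATP. Mitochondrial DNA encodes a few core subunits, and all other subunits, including the whole of complex II, are encoded in the nucleus, synthesised in the cytosol and imported. Neurons depend on this pathway for most of the ATP that restores ion gradients after synaptic activity.

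All levels are normalised read counts, that is estimated reads of a gene divided by a library's size factor. They summed to between 28363967 and 29447717 per library. *Shank3* itself was at 17469.8, 19003 and 16310.4 in TG and 8374, 8173 and 6791 in WT mice, and the groups did not overlap. Its log2 fold change was 1.18 (SE 0.10), with a limma adjusted p of 0.0643, or 0.000437 in the fit blocked by number. The mPFC libraries held high levels of the excitatory neuron genes *Camk2a* (116681 ± 11146 in TG and 113020.1 ± 11865 in WT mice) and *Slc17a7* (43582 ± 1823 in TG and 39671 ± 406 in WT mice). Genes of mature oligodendrocytes, the myelinating cells, were lower in TG mice. All 7 markers of that list were lower, 6 of them at an unadjusted p below 0.05 in limma, against 1.08% of all genes, and 0 at an adjusted p below 0.05. Their median log2 fold change was -0.45. Their summed level was between 74549.5 and 97009 in TG and between 111225 and 113332 in WT libraries. The 6 leptomeningeal markers were all higher in TG by their means, with a median of 0.24, 2 at an unadjusted p below 0.05 against 0.933% of all genes, and 0 after adjustment. The 5 blood markers were also all higher, with a median of 0.17 and 1 at an unadjusted p below 0.05. Of 4 choroid plexus markers tested, 2 were higher and 2 lower, with a median of 0.42 and 1 such call, higher. Of 6 striatal neuron markers, 5 were lower, with a median of -0.19 and 0 calls. None of these passed adjustment. In bulk tissue, fewer cells of a type and less RNA per cell cannot be told apart. The libraries numbered 3 stood apart from the others in both genotypes. The deviation of TG-3 from TG-1 and TG-2 and that of WT-3 from WT-1 and WT-2 had a Pearson correlation of 0.616 across the 16714 genes tested, so the comparison of the genotypes is also given without these libraries.

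The level of each member was first set against its transcript length, since a longer transcript gives more reads. Lengths were those of the longest principal transcript. As a mean over the 6 libraries, the median level was 1921 normalised counts per kilobase over the 92 members with a mean of at least 5 normalised counts. Over all members of each group, *Cox8b* included, the medians of complexes IV and V were 3299 and 3384 normalised counts per kilobase, that of complex III was 2704, and those of complexes I and II were 1763 and 1756. The group of assembly factors had the lowest median, 340.03 normalised counts per kilobase, although *Cox7a2l* in it was at 2839.

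Highest of all was *Cox8a* (chr19:7215153-7217616, minus strand on GRCm38), which encodes a small transmembrane subunit of complex IV, at 14311 ± 2077 normalised counts per kilobase (SD, n = 6 libraries). Next came *Atp5b* (chr10:128083273-128090391, plus strand), the catalytic beta subunit of the ATP synthase, at 12462 ± 835, and *Cox4i1* (chr8:120668222-120674207, plus strand), the main isoform of subunit 4, at 11333 ± 682 normalised counts per kilobase. *Cox8a* and *Atp5b* differed by less than the SD of *Cox8a*, and *Cox8a* was the higher in 4 of 6 libraries, while *Atp5b* was above *Cox4i1* in 6 of 6. *Cox6a1* followed at 9490.2 ± 577 and *Atp5a1*, the alpha subunit that forms the catalytic head together with beta, at 7423 ± 659 normalised counts per kilobase. In complex I the highest were *Ndufb8* at 3813 ± 310.1 and *Ndufb9* at 3722 ± 359.7 normalised counts per kilobase, both accessory subunits of the membrane arm.

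The lowest members tested were tissue-restricted paralogues of complex IV subunits, *Cox7b2* at 14.8 ± 6.67, *Cox6b2* at 42.9 ± 7.20 and *Cox4i2* at 44.2 ± 7.31 normalised counts per kilobase. *Cox8b*, whose product takes the place of COX8A in heart and skeletal muscle, had at most 3.87 normalised counts in a library and was not tested.

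The order of levels depends on the transcript taken for the length. For 8 members the shortest principal transcript was shorter by a factor of 1.5 or more. *Ndufb2* went from 275 to 2644 normalised counts per kilobase with a length of 455 instead of 4371 bases, *Atp5g1* from 600.5 to 4750.3, *Ndufc1* from 616 to 2441 and *Uqcrq* from 1254 to 4711. The low places of *Ndufb2* and *Ndufc1* in complex I, of *Uqcrq* in complex III and of *Atp5g1* in complex V are therefore not established. The other 4 of these members were *Ndufab1*, *Atp5mpl*, *Atp5g2* and *Atp5d*.

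**Figure D1:**
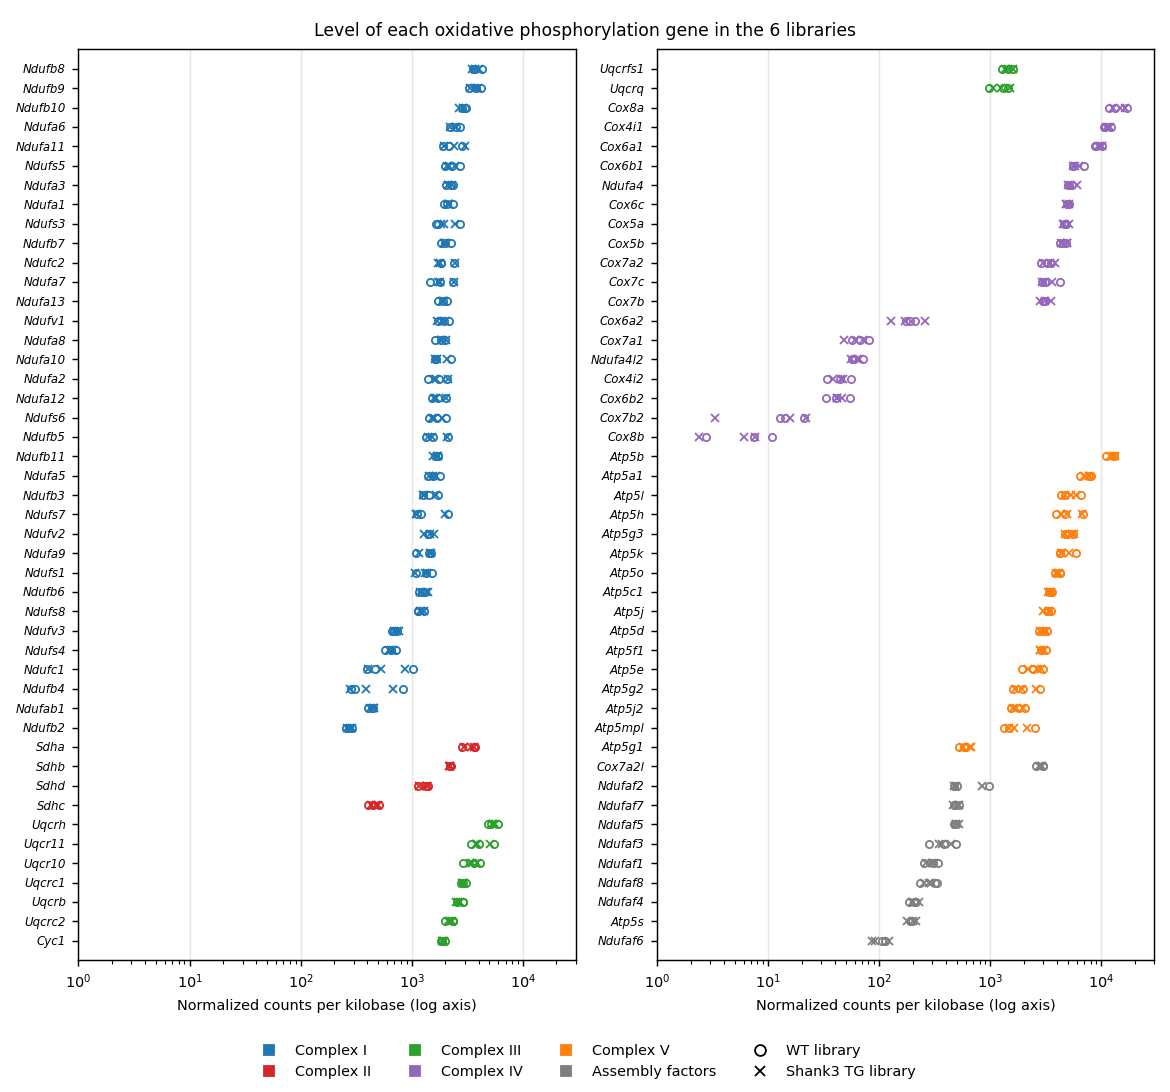
Level of 92 of the 93 members in normalised counts per kilobase of the longest principal transcript (x axis, log scale), by complex and in falling order of the mean, with circles for the 3 WT and crosses for the 3 *Shank3* TG libraries. The 2 genotypes lie on top of each other in nearly all members, and most members lie near 1000 normalised counts per kilobase or above, while the tissue-restricted complex IV paralogues, in the right panel, lie below 300.

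Several complex IV subunits and the c subunit of the ATP synthase are encoded by more than 1 gene, and the paralogues differ in where they are used. In each complex IV set the ubiquitous form dominated in every library. Of the summed level per kilobase of its set, *Cox4i2*, the isoform known for lung and for oxygen-sensing cells, made up 0.325% to 0.453% over the 6 libraries. *Cox6a2* and *Cox7a1*, the isoforms of heart and skeletal muscle, made up 1.36% to 2.56% and 1.25% to 2.29%. *Cox6b2*, known for testis, made up 0.587% to 0.783%, *Cox7b2* 0.118% to 0.699% and *Cox8b* 0.0189% to 0.0635%.

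*Cox6a2* (chr7:128205435-128206387, minus strand) was the most abundant of these minor forms. It was at 117, 87.1 and 175 in TG-1, TG-2 and TG-3 and 129.6, 118 and 144 in WT-1, WT-2 and WT-3. TG-3 was the highest and TG-2 the lowest of all 6 libraries, and the genotypes overlapped. *Ndufa4l2*, the paralogue of *Ndufa4* that is known to be induced by low oxygen, was at 61.8, 51.9 and 59.4 in TG and 66.3, 53.6 and 55.5 in WT mice, which is 1.05% to 1.29% of the pair. With lengths from the union of exons the shares became 2.01% to 2.46% for *Ndufa4l2*, 0.610% to 0.850% for *Cox4i2* and 0.356% to 0.475% for *Cox6b2*, and the ubiquitous form still dominated.

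The c subunit forms the rotating ring of the ATP synthase, and its 3 genes encode the same mature protein behind different import sequences. *Atp5g3* made up 62.0% to 69.6% of the 3 per kilobase, *Atp5g2* 22.3% to 31.3% and *Atp5g1* 6.74% to 8.47%. With the shortest principal transcript *Atp5g1* made up 31.8% to 38.2% and *Atp5g3* 37.4% to 41.1%, so these shares hold only for the transcript chosen. *Atp5g2* had its highest value in the library numbered 3 of each genotype, at 1399, 1228 and 1901 in TG and 1158, 1429.6 and 2028 in WT mice.

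**Figure D2:**
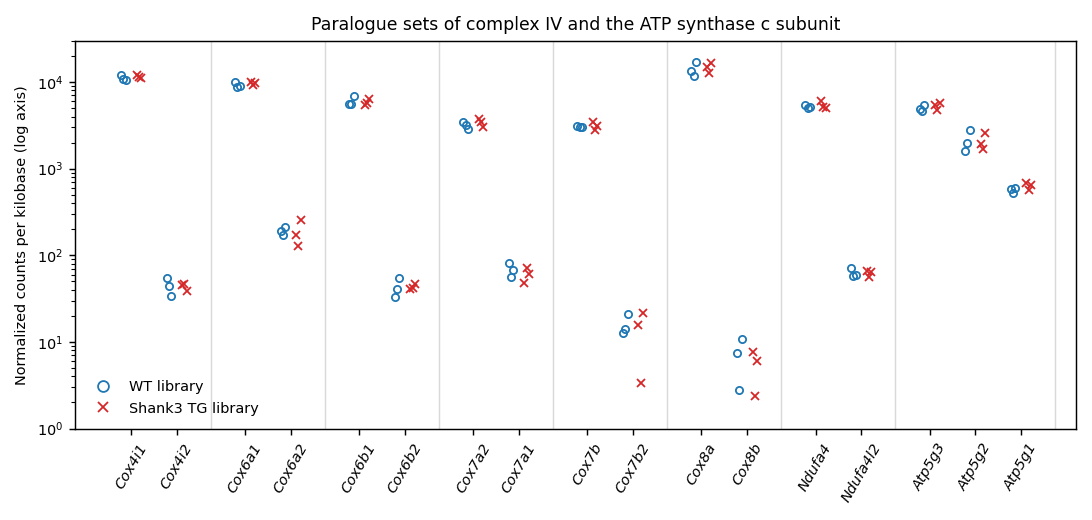
Level of each paralogue in normalised counts per kilobase (y axis, log scale) in the 3 WT (circles) and 3 *Shank3* TG libraries (crosses), set by set. In the complex IV sets the ubiquitous form lies well above the tissue-restricted form in all 6 libraries, and no set shows a separation of the genotypes.

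The main question of the design is whether the genes differ between TG and WT mice. No gene of any complex passed the test, and the genotypes overlapped in all members but 1. The members together took 0.802% to 0.840% of the normalised counts of a TG library and 0.794% to 0.839% of a WT library, and they summed to 236649 ± 7902 in TG and 235435 ± 5754 in WT mice (SD, n = 3). Of the 92 tested, 46 were higher and 46 lower in TG mice, and the median log2 fold change was 0.00043, beside -0.0037 over all 16714 genes tested. The absolute log2 fold change was below 0.1 for 87 of the 92.

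In limma on log2 values, 0 of the 92 passed an adjusted p of 0.05 with Benjamini-Hochberg adjustment over all genes, where the background was 0%. No gene passed in this fit, *Shank3* included, so this count does not set the members apart. At an unadjusted p below 0.05 there were again 0 of 92, with 0.933% of all genes called higher, 1.08% called lower and 2.01% called in either direction. The smallest unadjusted p was 0.118 in limma. When the replicate number was kept as a block, 1 of 92 had an unadjusted p below 0.05, against 4.98% of all genes, and with an empirical null 1 of 92, against 7.27%. Both calls were *Atp5g1*. Values of the 3 TG libraries did not overlap those of the 3 WT libraries in 1 of the 92, 1.09% of them, against 6.02% of all genes.

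The precision of the comparison differed between members. In the fit with genotype alone, the 95% interval of the log2 fold change included 0 for all 92. It lay within 0.5 on either side of 0 for 76 of them, within 0.25 for 28 and within 1 for 90. For most members, therefore, a rise by over 41.4% lay outside the interval, while a change of a few percent would not have been detectable. An exact permutation test of 3 against 3 libraries cannot give a p below 0.1. In the fit with genotype alone, a difference of the libraries numbered 3 that both genotypes share counts as spread. With the replicate block the SE was 0.062 instead of 0.30 for *Ndufs7*, 0.12 instead of 0.45 for *Ndufb4* and 0.092 instead of 0.39 for *Ndufc1*. It changed less for *Cox7b2*, 0.53 instead of 0.63, and was higher for *Cox7a1*, 0.30 instead of 0.27.

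**Figure D3:**
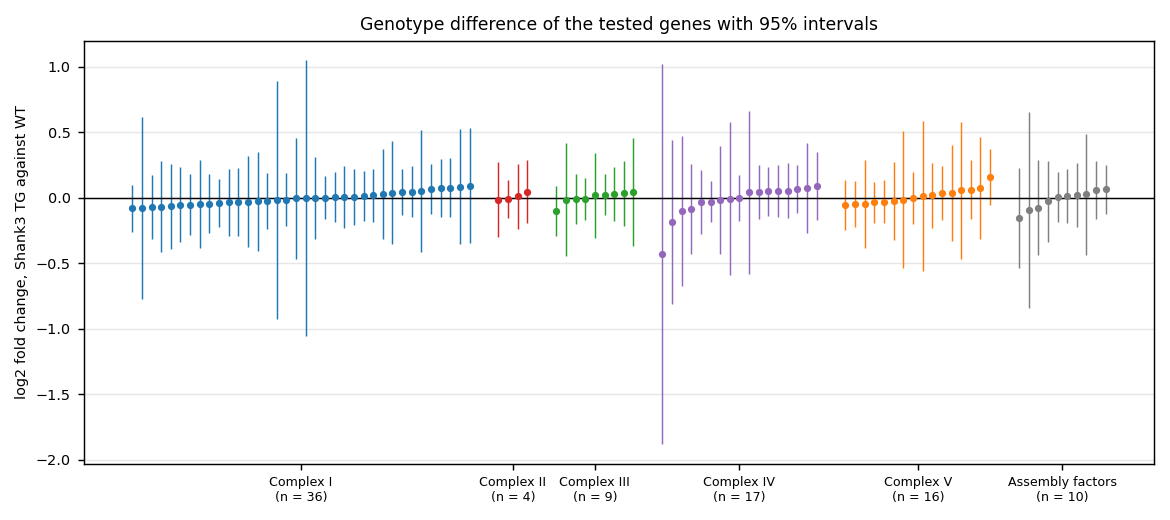
Log2 fold change of *Shank3* TG against WT (y axis) for the 92 members tested, ordered by size within each complex. Bars are 95% intervals from limma with genotype alone, without the replicate block. All intervals include 0, and the widest belong to *Cox7b2*, *Ndufb4* and *Ndufc1*.

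Complex I takes electrons from NADH through the flavin subunit NDUFV1 and a chain of iron-sulfur subunits. The median log2 fold change of its 36 genes was -0.0023, from -0.080 to 0.092, with 17 higher and 19 lower. *Ndufs1* (chr1:63143596-63176833, minus strand), which encodes the largest of the iron-sulfur subunits, was at 3657, 3532 and 2868 in TG-1, TG-2 and TG-3 and 3559.6, 4062 and 2929 in WT-1, WT-2 and WT-3. The lowest value of each genotype was that of the library numbered 3, and the groups overlapped, with a log2 fold change of -0.064 (SE 0.14) and an interval of -0.39 to 0.26. *Ndufv1*, which binds NADH and flavin, was at 3286, 3121 and 2826 in TG and 3613, 3251 and 2853 in WT mice, with a log2 fold change of -0.070 (SE 0.10). The core genes *Ndufs3*, *Ndufs7*, *Ndufs8* and *Ndufv2* had log2 fold changes of 0.053, -0.079, 0.048 and 0.018.

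Complex II, succinate dehydrogenase, is also an enzyme of the tricarboxylic acid cycle. Its 4 genes had a median log2 fold change of 0.00099. *Sdha* (chr13:74322254-74350280, minus strand), the flavin subunit that oxidises succinate, was at 10535, 10017 and 8587 in TG-1, TG-2 and TG-3 and 10567, 10692 and 8279 in WT-1, WT-2 and WT-3, with the lowest value of each genotype in the library numbered 3. Its log2 fold change was -0.015 (SE 0.12), with an interval of -0.30 to 0.27. *Sdhb*, the iron-sulfur subunit, was the steadiest of all, at 2541, 2470.4 and 2537 in TG and 2558, 2537 and 2503 in WT mice. The membrane anchors *Sdhc* and *Sdhd* had log2 fold changes of 0.048 and 0.011.

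Complex III passes electrons from ubiquinol through the Rieske protein and cytochrome c1. Over its 9 genes the median log2 fold change was 0.019. *Cyc1* (chr15:76343523-76346260, plus strand), which encodes cytochrome c1, was at 2991, 2866 and 2939.7 in TG and 3008, 2848 and 2802 in WT mice, a log2 fold change of 0.024 (SE 0.067). *Uqcrfs1*, the Rieske iron-sulfur protein, was at 2199.6, 1964 and 1845 in TG and 2173, 1975 and 1732 in WT mice, a log2 fold change of 0.033 (SE 0.11). The core proteins *Uqcrc1* and *Uqcrc2* had log2 fold changes of -0.0091 and -0.010, both with overlapping groups. The most negative value in complex III was that of *Uqcrb*, -0.10 (SE 0.082), a gene with 3 near-identical copies elsewhere in the genome.

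Complex IV, cytochrome c oxidase, reduces oxygen. Its 17 tested genes had a median log2 fold change of -0.00025. *Cox4i1*, the regulatory subunit that is needed for assembly, was at 9185, 8827 and 8419 in TG and 9312, 8254 and 8021 in WT mice, a log2 fold change of 0.049 (SE 0.081). *Cox5a* and *Cox5b*, which encode a pair of subunits on the matrix side, had log2 fold changes of -0.00025 and 0.052. The most negative value of all members was that of *Cox7b2*, -0.43 (SE 0.63), from 8.60, 1.81 and 11.8 in TG and 6.92, 7.71 and 11.3 in WT mice. It rests on the single low value in TG-2, without which it was 0.23, and its interval of -1.88 to 1.02 spans a fall and a rise alike.

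Complex V turns the proton gradient into ATP through a membrane rotor and a catalytic head. The median log2 fold change of its 16 genes was 0.0050. *Atp5b* was at 25399, 24400.5 and 22700.3 in TG-1, TG-2 and TG-3 and 24625, 24931 and 21203 in WT-1, WT-2 and WT-3, a log2 fold change of 0.037 (SE 0.090), and *Atp5a1* was at 19294, 18935 and 17051 in TG and 18986, 20074 and 15708 in WT mice, a log2 fold change of 0.019 (SE 0.11). The groups overlapped in both. *Atp5c1*, the central shaft, had a log2 fold change of -0.034 (SE 0.068).

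*Atp5g1* (chr11:96068852-96075670, minus strand) had the largest positive value among the 92. It was at 3187, 2689 and 3096 in TG-1, TG-2 and TG-3 and 2714, 2479.6 and 2821 in WT-1, WT-2 and WT-3, with means of 2991 ± 265 in TG and 2672 ± 175 in WT mice. The lowest TG value, that of TG-2, lay below the highest WT value, that of WT-3, so the groups overlapped, but within each replicate number the TG library was the higher. The log2 fold change was 0.16 (SE 0.092), with an interval of -0.052 to 0.37. In limma its unadjusted p was 0.118 and its adjusted p 1.00. With the replicate block the unadjusted p was 0.0186 and the limma adjusted p 0.870, so it did not pass after adjustment in either model. The other c subunit genes, *Atp5g2* and *Atp5g3*, had log2 fold changes of -0.013 and 0.062.

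Among the assembly factors the median log2 fold change was 0.0100. *Ndufaf5* (chr2:140170649-140203689, plus strand), which modifies an arginine of NDUFS7 during assembly, was the member without overlap, at 606, 578 and 577 in TG-1, TG-2 and TG-3 and 576, 555 and 552 in WT-1, WT-2 and WT-3. The lowest TG value exceeded the highest WT value by less than 1 normalised count. Its log2 fold change was 0.064 (SE 0.080), with a limma unadjusted p of 0.447 and an adjusted p of 1.00. *Cox7a2l* was at 3074, 2933 and 3169 in TG and 3191, 2781 and 3179.8 in WT mice, a log2 fold change of 0.0060 (SE 0.081).

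Other genes of mitochondrial energy metabolism were set beside the members, from lists that were chosen with earlier results of these data known. The 13 subunits encoded in mitochondrial DNA had a median log2 fold change of -0.043, with 12 lower and 0 at an unadjusted p below 0.05. Without both libraries numbered 3 that median turned to 0.048, WT-3 having the highest share of these transcripts. They took 8.89% to 9.87% of the normalised counts in TG and 8.75% to 11.3% in WT libraries, over 10 times the share of the nuclear genes. The most abundant was *mt-Co1*, the catalytic subunit of complex IV, at 696396 ± 51599 in TG and 712529 ± 113655 in WT mice (SD, n = 3). Of 42 further assembly factors, 0 were higher and 1 was lower at an unadjusted p below 0.05, against 0.933% and 1.08% of all genes, and their median was 0.011, or -0.022 without the libraries numbered 3. Cytochrome c, the ATP synthase inhibitor *Atpif1* and *Usmg5* had 0 calls and a median of -0.0038. The 16 tricarboxylic acid cycle genes had 0 calls in either direction and a median of -0.021. The 16 glycolysis genes also had 0 calls and a median of 0.045, with 14 higher and 2 lower, and a median of 0.011 without the libraries numbered 3. Regulators of mitochondrial biogenesis, 11 genes, had 0 calls and a median of -0.035, and *Ppargc1a*, the coactivator PGC-1alpha, was at 1597 ± 231 in TG and 1748 ± 221 in WT mice. Carriers, import and membrane genes (20) had 0 calls and a median of -0.012. The 78 mitochondrial ribosomal protein genes had 0 calls and a median of -0.0012, and the 82 cytosolic ribosomal protein genes had 0 calls and a median of -0.042, with 64 lower, and of -0.0073 without the libraries numbered 3.

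Within a genotype the libraries were not alike. The members deviated from their mean over the 6 libraries by a median log2 of 0.026, -0.071 and 0.060 in TG-1, TG-2 and TG-3 and 0.018, -0.091 and 0.059 in WT-1, WT-2 and WT-3. The libraries numbered 2 were thus lowest in both genotypes. These differences between libraries of 1 genotype were larger than the difference between the genotypes within each number, whose medians were 0.0044, 0.016 and -0.0096 for the numbers 1, 2 and 3.

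**Figure D4:**
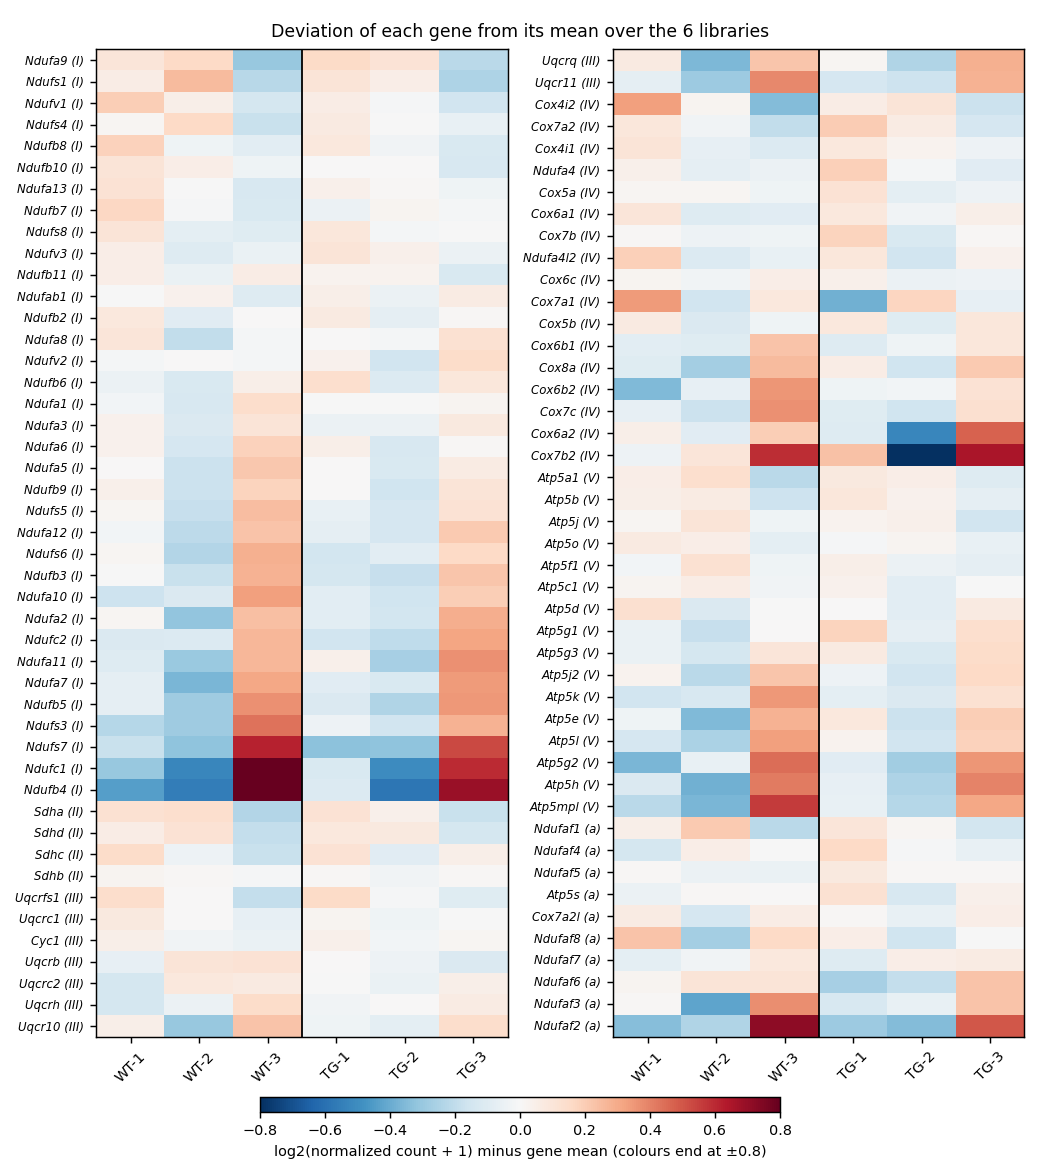
Deviation of log2(normalised count + 1) from the mean of the 6 libraries (colour, from blue for lower to red for higher) for 91 of the 92 members tested, by complex (in brackets, with a for assembly factors) and ordered within it by the deviation of the libraries numbered 3. The columns WT-3 and TG-3 share their blue rows at the top of complex I and their red rows at its end, and the columns of equal number look alike in both genotypes.

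In 40 of the 92 members, 43.5%, the library numbered 3 was above the other 2 in both genotypes, against 24.9% of all genes, and in 21 members, 22.8%, it was below them in both, against 25.3% of all genes. The deviations in TG and WT had the same sign in 76 of the 92, a count for which no share over all genes is given. Their Pearson correlation was 0.862 across the members and 0.616 across all genes tested. These are correlations across genes of the same 6 libraries, which share their scaling, and genes are not independent replicates.

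*Ndufb4* (chr16:37647170-37654453, minus strand), an accessory subunit of the membrane arm of complex I, differed most. It was at 378, 273 and 659 in TG-1, TG-2 and TG-3 and 301, 278 and 815 in WT-1, WT-2 and WT-3. Both libraries numbered 3 lay well above the other 4, with log2 deviations of 1.03 in TG and 1.49 in WT. *Ndufc1*, another small accessory subunit, was at 656, 505 and 1083 in TG and 579, 498 and 1291 in WT mice, with deviations of 0.91 in TG and 1.26 in WT. *Ndufs7* (chr10:80249121-80256794, plus strand), which carries the iron-sulfur cluster next to ubiquinone, was at 1083, 1087 and 1963 in TG and 1203, 1089 and 2081 in WT mice, with deviations of 0.85 in TG and 0.86 in WT. TG-1 and TG-2 were near-equal, and all 4 libraries numbered 1 and 2 lay far below both numbered 3. The assembly factor *Ndufaf2* was at 330.4, 318 and 570.00 in TG and 319, 342 and 664 in WT mice. In complex V, *Atp5mpl*, *Atp5h* and *Atp5g2*, which encode small membrane and stalk subunits, had mean deviations of 0.65, 0.61 and 0.60. *Atp5h* and *Atp5g2* have near-identical copies elsewhere in the genome, and with its measured copy added *Atp5g2* had 0.36. *Cox7b2* had deviations of 1.30 in TG and 0.57 in WT, from under 12 normalised counts in every library.

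The 21 members that were lower in both libraries numbered 3 came from all 5 complexes and the assembly factors. *Ndufa9* (chr6:126821721-126849136, minus strand), an accessory subunit next to the ubiquinone site, was at 2162, 2106 and 1678 in TG and 2079.6, 2179 and 1579.5 in WT mice, with log2 deviations of -0.35 in TG and -0.43 in WT. *Ndufs1* had deviations of -0.33 in TG and -0.38 in WT, *Sdha* -0.26 in TG and -0.36 in WT and *Atp5a1* -0.16 in TG and -0.31 in WT. In all of these the library numbered 3 was the lowest of its genotype. The minor isoform *Cox4i2* had deviations of -0.25 in TG and -0.52 in WT, and the 9 markers of pericytes and smooth muscle had medians of -0.47 in TG and -0.15 in WT, with 5 of 9 below in both. Their sum was 7225 to 8378 normalised counts in the libraries numbered 1 and 2 and 6514 and 6974 in TG-3 and WT-3. Other markers had medians of -0.36 in TG and -0.29 in WT for microglia (3 of 5 below in both) and -0.29 in TG and -0.16 in WT for astrocytes (4 of 6 below in both). Leptomeningeal markers had -0.095 in TG and -0.29 in WT, with 3 of 6 below and 0 above. Endothelial markers had -0.15 in TG and -0.17 in WT, with 1 of 5 below and 1 above, *Pecam1* being at 1.62 in TG and 1.86 in WT. Markers of inhibitory neurons had -0.015 in TG and -0.050 in WT, with 2 of 6 below and 1 above. Markers of excitatory neurons had medians of 0.19 in TG and 0.15 in WT, with 3 of 5 above and 0 below in both. Those of blood had 0.45 in TG and 0.38 in WT, with 3 of 5 above and 1 below, and those of choroid plexus 0.66 in TG and 0.63 in WT, with 2 of 4 above and 0 below, but with *Aqp1* at -2.07 in TG and 0.69 in WT. Of all genes, 24.9% were above and 25.3% below in both. The part of any of these cells in the result was not tested.

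By complex, the median of the deviations, each averaged over the 2 genotypes, was 0.13 for complex I, -0.17 for complex II, 0.089 for complex III, 0.0072 for complex IV, 0.14 for complex V and 0.10 for the assembly factors. Complex II, which had the longest median transcript, was the only complex with no gene above in both genotypes. The 13 mitochondrially encoded subunits had a median of 0.27, with 11 above in both, and the cytosolic ribosomal protein genes one of 0.24, with 55 of 82 above in both. The mitochondrial ribosomal protein genes had a median of 0.068. The tricarboxylic acid cycle genes went the other way, with a median of -0.12 and 12 of 16 below in both, as did the glycolysis genes, with a median of -0.17 and 11 of 16 below.

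Transcript length moved with this difference. Of the 52 members with a transcript under 1000 bases, 31 were above in both libraries numbered 3 and 7 below, with a median deviation of 0.21. Of the 40 longer members, 9 were above and 14 below, with a median of -0.027. Over all 1404 tested genes with a transcript under 1000 bases, 34.8% were above in both and 16.2% below, with a median of 0.12. Spearman's rho between deviation and length was -0.417 across the 92 members and -0.062 across 16695 genes. Between deviation and GC content of the transcript it was 0.034 across the members. The part of transcript length in the difference was not tested.

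**Figure D5:**
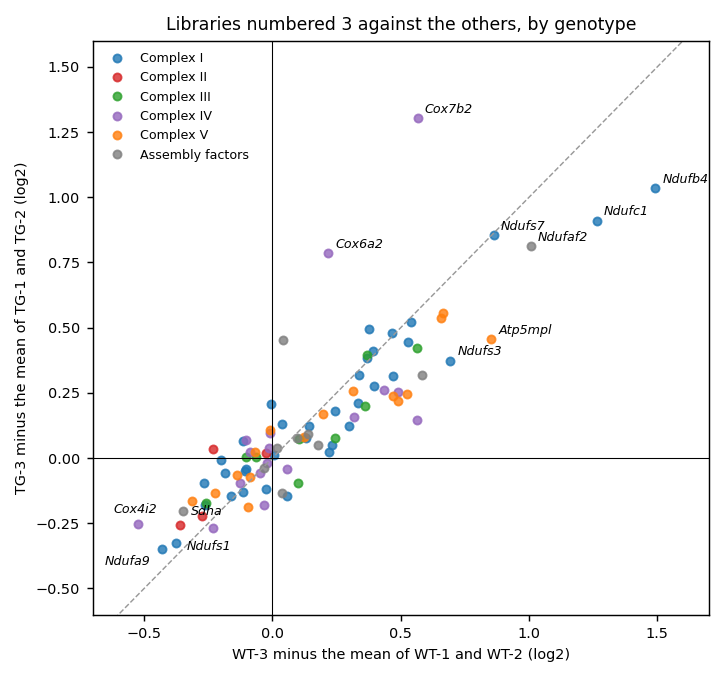
Log2 deviation of TG-3 from the mean of TG-1 and TG-2 (y axis) against that of WT-3 from the mean of WT-1 and WT-2 (x axis) for the 92 members tested, coloured by complex, with a dashed line where both are equal. The points run along the line from *Ndufa9* at the lower left to *Ndufb4* at the upper right, and *Cox7b2* and *Cox6a2* lie above it.

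Without both libraries numbered 3, 0 of the 92 had an unadjusted p below 0.05 in limma, and the median log2 fold change was 0.0038. By complex the medians were 0.0022, -0.032, 0.0048, 0.017 and 0.017 for complexes I to V and 0.014 for assembly factors, so that those of complexes I, II and IV, all near 0, changed sign. Since only 2 libraries were left in each genotype, the values did not overlap in 13 of the 92, against 26.1% of all genes. *Atp5g1* then had a log2 fold change of 0.17 and *Ndufaf5* one of 0.066.

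Transcription of many genes of the pathway is known to be driven by the nuclear respiratory factor NRF1, by GABP, an ETS factor, and by YY1. Promoter windows of 300 bases, 250 before the start of transcription and 50 after it, were found in RefSeq (GRCm38.p6) for 74 of the 93 members, 79 windows in all. The NRF1 core GCATGCG, on either strand, was in 16.5% of these windows and in 3.58% of all 32851 windows. All windows together belong to 27025 genes, more than the 18254 measured, so genes without a value here are among them. The ETS core CCGGAAG, on either strand, was in 22.8% against 8.86%, and the YY1 core AAGATGG, on either strand, in 13.9% against 6.34%. None of the cores contains another, and 43.0% of member windows held at least 1 of them against 17.3% of all windows. Member windows had a GC content of 57.7%, against 53.8% in all windows. A match is a run of letters and says nothing of binding in these samples.

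The NRF1 core was found in 13 members. For the 9 in which it ended at least 10 bases before the RefSeq start, the stretch with 10 bases on either side (9 on the left in *Atp5l*, where the window ends) is printed here in the direction of the gene, to let the shared letters be compared. Capitals mark the core. In 7 of the 9 they read CGCATGCG, a single palindrome that holds the core on both strands in overlapping positions.
*Atp5g2*, chr15:102671071-102671098, minus strand: gctccggccgCGCATGCGcagagccttc
*Atp5j*, chr16:84835106-84835133, minus strand: ggccagaataCGCATGCGtacagtgcag
*Atp5k*, chr5:108434431-108434458, minus strand: ttcactgcggCGCATGCGcctttctggc
*Atp5l*, chr9:44920966-44920992, minus strand: aaccaataaCGCATGCGcatttccccc
*Cox6a1*, chr5:115349102-115349129, minus strand: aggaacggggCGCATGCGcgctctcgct
*Ndufa11*, chr17:56717693-56717720, plus strand: ctgcactgcgCGCATGCGcgcacgcctt
*Ndufa6*, chr15:82354358-82354384, minus strand: ccgcggtagaGCATGCGcattgcagag
*Ndufaf4*, chr4:24897961-24897988, plus strand: cagatgtctgCGCATGCGcctgtgcgga
*Sdhb*, chr4:140961207-140961233, plus strand: agcccagtggGCATGCGccctacgggc

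The genes span complexes I, II, IV and V and an assembly factor. In *Sdhb*, *Atp5g2* and *Atp5k* the core began 54, 41 and 49 bases before the start, in *Ndufa11* 59 and in *Ndufa6* 83 bases before it. In *Cox6a1*, *Atp5j* and *Atp5l* it lay further out, at 161, 147 and 241 bases, and in *Ndufaf4* at 112. By the GENCODE gene limits the stretches of *Cox6a1*, *Atp5l*, *Ndufa6*, *Ndufa11* and *Ndufaf4* lie upstream of the gene, while those of *Atp5g2*, *Atp5j* and *Sdhb* and part of that of *Atp5k* lie inside it. *Atp5j* has 2 windows, and this match was in the one whose start lies downstream. None of these 9 genes had an absolute log2 fold change above 0.1 between the genotypes.

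The ETS core was found in 18 members. It is printed here, in capitals and with 10 bases on either side, for the 6 genes that were above in both libraries numbered 3 and in which a core ended at least 10 bases before the RefSeq start. Capitals that read CTTCCGG are the core on the opposite strand.
*Atp5e*, chr2:174464187-174464213, minus strand: acggccacagCTTCCGGtagccgctcg
*Atp5h*, chr11:115419941-115419967, minus strand: aaggagagaaCTTCCGGcaactctctt
*Atp5l*, chr9:44920938-44920964, minus strand: cttcaccgatCTTCCGGaccaacatga
*Cox6b1*, chr7:30626126-30626152, minus strand: cctctcgcagCTTCCGGccagtcggaa
*Ndufs3*, chr2:90904732-90904758, minus strand: ccgcgtccgcCCGGAAGaagagtcact
*Uqcr11*, chr10:80406871-80406897, minus strand: tctctcctccCCGGAAGtagatgtcaa

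*Atp5l* held both cores, the ETS core 212 and the NRF1 core 241 bases before its start. *Atp5h* and *Ndufs3*, with mean deviations of 0.61 and 0.53 in the libraries numbered 3, held the ETS core 38 and 27 bases before the RefSeq start. By the GENCODE gene limits the stretch of *Ndufs3* and most of that of *Cox6b1* lie inside the gene, while that of *Uqcr11* lies upstream. The YY1 core was found in 11 members, in 9 of them on the coding strand 11 to 39 bases after the start. Among them were *Ndufc1* and *Ndufs7*, above in both libraries numbered 3, at 23 and 25 bases. *Ndufa9*, *Ndufs4* and *Ndufb8*, below in both, held it at 30, 36 and 39 bases. Of the members with a window, 17 of 34 that were above in both libraries numbered 3 held at least 1 of the 3 cores, as did 7 of 15 that were below and 10 of the 25 others. The ETS core was in 9 of the 34, 3 of the 15 and 6 of the 25. The NRF1 core was in 5, 2 and 6 of them, and the YY1 core in 6, 4 and 1.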

How the data were processed

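Polyadenylated RNA was sequenced from stranded libraries. The authors estimated transcript reads with Salmon 0.9.1 on GRCm38 with GC bias correction, summed them per gene with tximport and divided them by DESeq2 1.19.11 size factors (R 3.6.0). The deposited signal is these normalised read counts for 18254 genes. The values are not whole reads, so a count test could not be used, and no counting interval is given. Their sums per library, 28363967 to 29447717, stand in for depth. All 6 columns matched a sample.

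Names, positions and transcript lengths came from GENCODE M21, in which 18231 genes were found. limma 3.58.1 in R 4.3.3 was fitted to log2(value + 1) of 16714 genes, those averaging 5 normalised counts or more, with genotype alone, a mean-variance trend and two-sided tests, and p-values were adjusted by Benjamini-Hochberg over all of them. Fold changes on this scale understate the change of low genes. The script was tested on simulated data. Replicate numbers come from the labels. Same-numbered libraries deviated together, with correlations across genes of 0.30, 0.33 and 0.62 for the numbers 1, 2 and 3. Unmatched pairs among the numbers 1 and 2 reached 0.27 (TG-1 with WT-2) and 0.23 (TG-2 with WT-1), so that number 3 alone stands clear. As all matched values exceed 0.1, a fit with the number as a block was run as well. The empirical null divides z-scores by their width, which was 0.731 in the fit with genotype alone, narrower than a standard normal. With the replicate block the width was 0.996. Near-identical copies are transcripts of other genes found by BLAST 2.17.0 at 95% identity or more over at least 50% of the member. Counts of members are read against the share over all genes, and no list was tested as a set.

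The members and lists were chosen with earlier results of these data known. The text names core subunits, all paralogue sets, members past an unadjusted p of 0.05, the highest and lowest levels and, from other lists, the most abundant genes. Genes named for their deviation in the libraries numbered 3, *Ndufaf5* and the members with printed sequences were chosen after their values were seen. Some genes these rules name are not reported here.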

Additional observations from a re-analysis of the deposited data

How the results depend on the processing

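None of the 38 members followed by name passed an adjusted p of 0.05 in any limma refit. These gave 604 results, each for 1 member in 1 setting. The sign differed from the value reported in 68 of the results. In 67 of these the value reported was below 0.1 in size, and the other was *Cox7b2* without TG-2 (0.23 instead of -0.43). The alternatives were other pseudocounts (0.1 and 5), a filter at 50 or none, upper quartile or quantile scaling, no trend, the robust option, the replicate block and libraries left out. The empirical null was computed besides these refits. Medians over all members lay between -0.045 and 0.042 when 1 library was left out. The count at an unadjusted p below 0.05 went from 0 to 1 with the replicate block, with the empirical null and without TG-2 (range 0 to 1 over single libraries left out). The gene was *Atp5g1* each time, with a log2 fold change of 0.24 without TG-2 and adjusted p-values between 0.87 and 1.00 over the limma refits, or 0.60 with the empirical null. Pairing by the block changed no other call of a member. The count without overlap went from 1 to between 4 and 9 of 92 without 1 library (11.1% to 15.9% of all genes), and to 13 without both numbered 3 (26.1%), since fewer values are compared. Over all genes, 0 passed an adjusted p of 0.05, 1 with the block, with robust or upper quartile scaling and without WT-3 or both libraries numbered 3, and 26 with the empirical null. The median level of 1921 normalised counts per kilobase became 1132 with the union of exons and 2136 with the shortest principal transcript, a length chosen after seeing the data. Without counts, precision is limited by 3 pools per genotype.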

Other observations

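Some members have near-identical copies, among which the counting cannot divide reads with certainty. For 11 of the 93, a transcript of another gene was at least 95% identical over at least 50% of the member's length, and for 4 of these a copy was measured. *Atp5g2* was at a mean of 1524 normalised counts and its measured copy *Gm10175* at 155, *Cox7c* at 1780.2 and *Gm10012* at 70.1, *Atp5h* at 3553 and *Gm10250* at 10.6, and *Atp5l* at 2855 and its 2 measured copies together at 48.2. With the copies added, the mean log2 deviation of the libraries numbered 3 was 0.36 instead of 0.60 for *Atp5g2*, 0.48 instead of 0.37 for *Cox7c*, 0.35 instead of 0.38 for *Atp5l* and 0.61 with and without for *Atp5h*. Values of these genes are uncertain to that extent.

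The genes whose log2 values followed the mean profile of the members most closely over the 6 libraries were *Ubac2*, *Tmem121*, *Pradc1*, *Bad* and *Chrna7*, with Pearson correlations of 0.997, 0.997, 0.994, 0.989 and 0.989. They were picked as the highest of 16714 genes over only 6 libraries. The closest member was *Uqcrq*, at 0.905.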
